A study of Homo sapiens with 4 samples.

Results

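The nuclear genes for mitochondrial ribosomal proteins were followed in MOLM13 leukaemia cells with and without a hairpin against PRMT9. The genes were taken from the deposited count table by name, as every entry whose symbol is MRPL or MRPS followed by a number and, for some, a letter from A to C. This gave 78 genes of the 57992 in the table, 49 named for the large subunit (MRPL) and 29 for the small subunit (MRPS), and all 78 were among the 15193 genes with enough reads to be tested. The rule reads names and uses no measured value.

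The mitochondrial ribosome is built in the mitochondrial matrix from ribosomal RNA encoded by the mitochondrial genome and from proteins that are all encoded in the nucleus, translated in the cytosol and imported. Its small subunit decodes the messenger RNA, and its large subunit joins the amino acids and releases the chain through an exit tunnel at the inner membrane. In human cells its products are a few subunits of the respiratory chain and of ATP synthase, and leukaemia cells that depend on respiration depend on it. Some of its proteins have a counterpart in the bacterial ribosome, and the others are specific to mitochondria.

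Polyadenylated RNA was sequenced from a subline of MOLM13, a human acute myeloid leukaemia cell line, that the labels mark as venetoclax resistant (VEN-R). Venetoclax inhibits the survival protein BCL2. All 4 libraries came from cells treated with doxycycline to induce a short hairpin RNA (shRNA). In 2 libraries the hairpin was directed at PRMT9, an enzyme that methylates arginine in proteins (genotype label PRMT9 knockdown), and in the other 2 it was a control hairpin (genotype label WT). The labels number the 2 libraries of a group but do not say whether they came from separate cultures or from different hairpins. The p-values therefore measure the spread between these libraries, which may be technical. Total counts were 30764403 and 33845172 in the PRMT9 shRNA libraries and 30329901 and 28592902 in the control libraries. PRMT9 itself had 81 and 78 reads in PRMT9 shRNA cells, against 398 and 406 in control cells, a log2 fold change of -2.48 (SE 0.12, edgeR quasi-likelihood test, adjusted p = 1.13e-11). All 8 myeloid markers looked at were read in every library, and they differed between the groups (edgeR, adjusted p below 0.05 for each): CSF1R (log2 fold change 1.86), CD14 (1.86, with at most 21 reads in a library), ITGAM (1.83), LYZ (0.63), CD33 (0.47), SPI1 (0.34) and FLT3 (0.21) rose, and MPO, a granule enzyme of immature myeloid cells, fell (-0.47). The part of this shift in the values of the ribosomal protein genes was not tested. EPCAM, which marks epithelial cells, had 0 reads in all 4 libraries.

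Most mitochondrial ribosomal protein genes were lower in PRMT9 shRNA cells, by modest amounts. At an adjusted p below 0.05, 49 of the 78 fell, 7 rose and 22 did not pass the test. Across all 15193 tested genes 68.0% passed, 34.5% lower and 33.4% higher, so the members' share of falls, 62.8%, was above that background and their share of rises, 8.97%, was below it. The median log2 fold change was -0.27 for the members, a level 17.3% below control, and 0.00 over all tested genes. Fold changes were below 0 for 64 of the 78 members. Both PRMT9 shRNA libraries lay below both control libraries for 57 members and above both for 10, and the groups overlapped for 11. Over all tested genes 41.7% lay apart in the lower direction and 41.7% in the higher. The fall exceeded 0.5 on the log2 scale for 17 of the 78 members, and no member had a rise of that size. Of all 15193 tested genes, 2412 passed as lower by more than 0.5 and 2994 as higher by more than 0.5. Between the libraries of 1 group, members differed by a median of 0.05 (PRMT9 shRNA) and 0.06 (control shRNA) on the log2 scale. These are relative values from bulk RNA, in which fewer cells of a kind and less RNA per cell cannot be told apart.

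**Figure D1:**
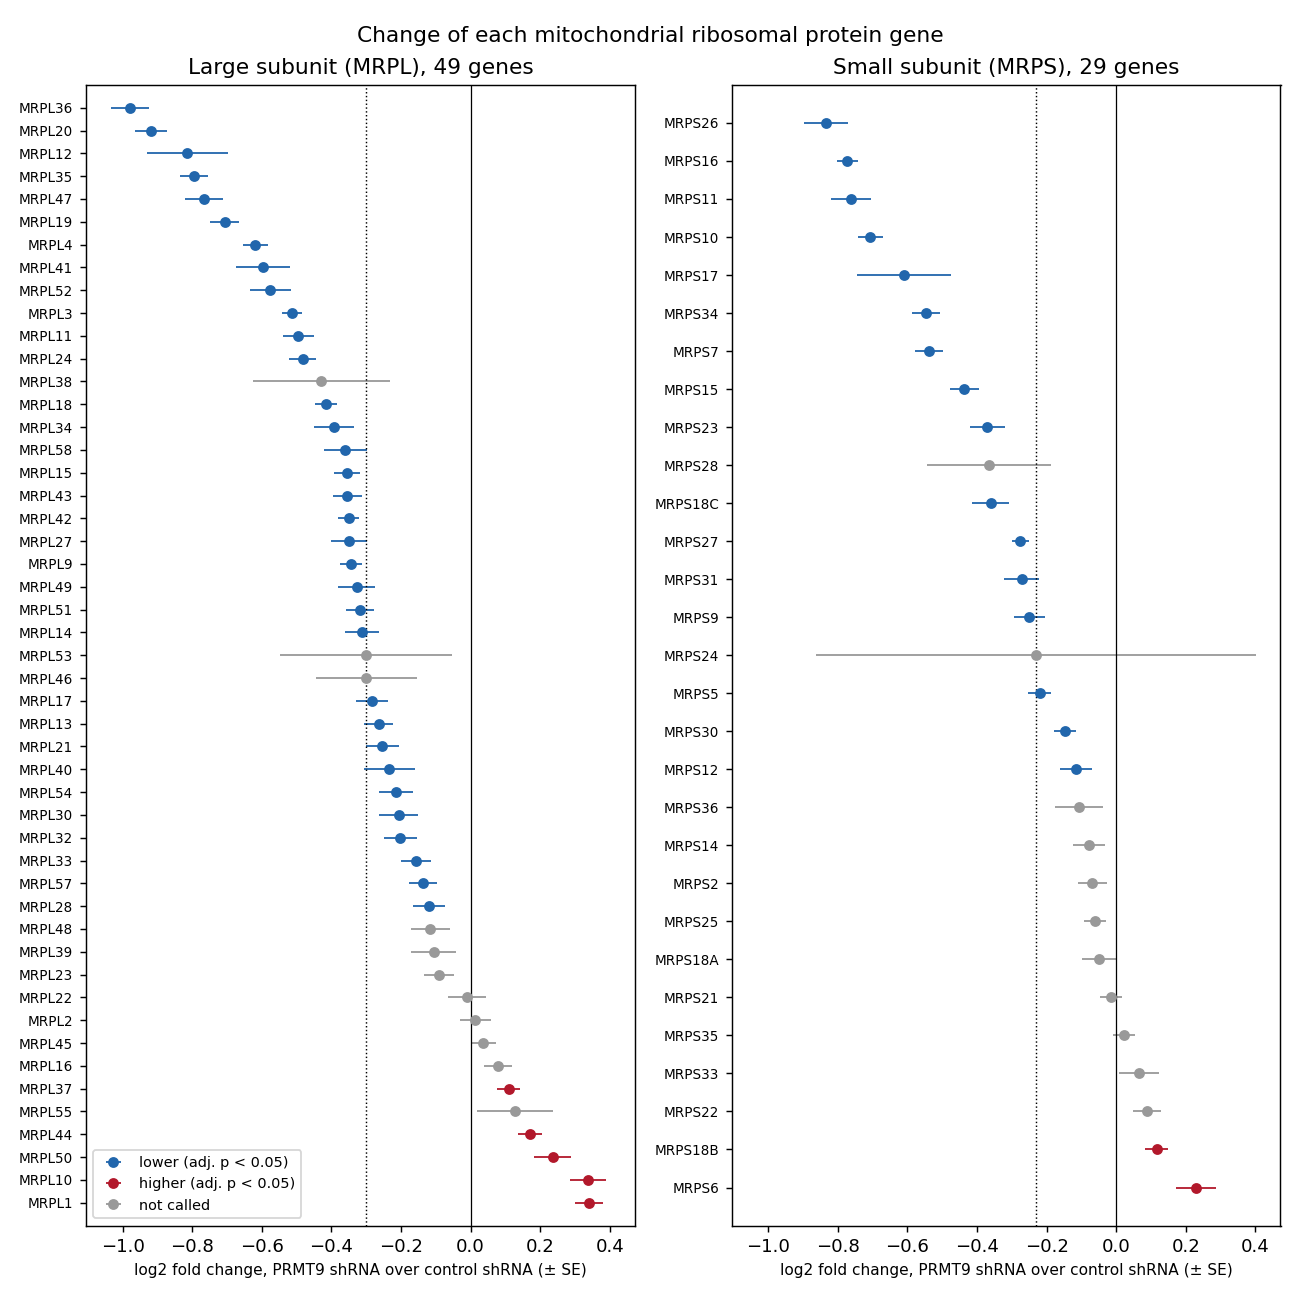
Log2 fold change, PRMT9 shRNA over control shRNA, of the 49 large-subunit and 29 small-subunit genes, with bars of 1 SE from the fit and the subunit's median as a dotted line. Blue points fell, red points rose and grey points did not pass an adjusted p of 0.05. Both panels run further to the left, to -0.98 for MRPL36 and -0.83 for MRPS26, than to the right, to 0.34 for MRPL1 and 0.23 for MRPS6.

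The members with the strongest falls in the large subunit were proteins with a bacterial counterpart. MRPL36, counterpart of the small bacterial protein L36, had 21.6 and 22.3 CPM (counts scaled to library size) in PRMT9 shRNA cells, against 41.8 and 44.9 CPM in control cells. The groups lay far apart, with a log2 fold change of -0.98 (SE 0.05, edgeR adjusted p = 7.1e-11). MRPL20, counterpart of L20, which binds ribosomal RNA early in bacterial assembly, had 32.1 and 33.2 CPM in PRMT9 shRNA cells, against 60.1 and 63.7 CPM in control cells. Its groups did not overlap either, at a log2 fold change of -0.92 (SE 0.05, edgeR adjusted p = 1.58e-11). MRPL35, counterpart of L35, had 48.3 and 46.7 CPM in PRMT9 shRNA cells, against 80.0 and 84.7 CPM in control cells. MRPL47, a protein at the rim of the exit tunnel, had 29.98 and 32.6 CPM in PRMT9 shRNA cells, against 50.7 and 56.0 CPM in control cells. MRPL19, counterpart of L19, which lies at the interface of the subunits, had 39.6 and 38.1 CPM in PRMT9 shRNA cells, against 63.2 and 63.5 CPM in control cells. In each of these genes both PRMT9 shRNA libraries were below both controls, and the log2 fold changes were -0.79, -0.77 and -0.71 with edgeR adjusted p of 2.07e-11, 2.05e-09 and 1.28e-10.

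MRPL12 forms the flexible stalk that recruits translation factors, and its protein is also reported to bind the mitochondrial RNA polymerase. It had 4.37 and 4.27 CPM in PRMT9 shRNA cells, against 7.57 and 7.62 CPM in control cells, a log2 fold change of -0.81 (SE 0.12, edgeR adjusted p = 9.28e-06). In GENCODE release 29, 68.2% of the exon bases of MRPL12 are also exon of another gene on the same strand, and the part of shared reads in its low level was not tested. The stalk as a whole did not move one way. MRPL11, at the stalk base, fell (log2 fold change -0.49, SE 0.04, edgeR adjusted p = 2.31e-08), MRPL10, which anchors MRPL12 to the ribosome, rose, and MRPL53 had 1.23 and 1.5 CPM in PRMT9 shRNA cells and 1.95 and 1.41 CPM in control cells, with overlapping groups.

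In the small subunit the lowest fold changes were those of MRPS26, MRPS16, MRPS11 and MRPS10. MRPS26, a protein specific to mitochondria, had 14.5 and 14.3 CPM in PRMT9 shRNA cells, against 25.7 and 25.5 CPM in control cells, a log2 fold change of -0.83 (SE 0.06, edgeR adjusted p = 4.07e-09). MRPS16, counterpart of the bacterial assembly protein S16 and mutated in a human disorder of the respiratory chain, had 84.6 and 88.0 CPM in PRMT9 shRNA cells, against 147 and 148 CPM in control cells. It was the most precisely measured of the 10 lowest members, at -0.77 (SE 0.03, edgeR adjusted p = 7.15e-13). MRPS11, whose bacterial counterpart lines the platform where the messenger RNA leaves, had 18.8 and 18.9 CPM in PRMT9 shRNA cells, against 31.0 and 32.9 CPM in control cells. MRPS10, counterpart of S10 in the head of the subunit, had 64.5 and 68.8 CPM in PRMT9 shRNA cells, against 108 and 110 CPM in control cells. Neither gene's groups overlapped, and the log2 fold changes were -0.76 (edgeR adjusted p = 4.46e-09) and -0.71 (edgeR adjusted p = 1.95e-11). MRPS17 (-0.61), MRPS34 (-0.55) and MRPS7 (-0.54) completed the small-subunit members that fell by more than 0.5 on the log2 scale, and MRPL4 (-0.62), MRPL41 (-0.60), MRPL52 (-0.58) and MRPL3 (-0.51) did so in the large subunit. MRPL3, next to the catalytic centre, was also among the most abundant members.

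Of the 7 genes that rose, 5 belong to the large subunit. MRPL1, whose bacterial counterpart forms the mobile arm at the exit of spent transfer RNA, had 68.4 and 66.2 CPM in PRMT9 shRNA cells, against 51.7 and 54.6 CPM in control cells, a log2 fold change of 0.34 (SE 0.04, edgeR adjusted p = 1.06e-06). MRPL10 had 35.5 CPM in each of the PRMT9 shRNA libraries, against 27.4 and 28.8 CPM in control cells, also 0.34 (SE 0.05, edgeR adjusted p = 1.73e-05). The groups were apart in both genes. MRPL50, specific to mitochondria, had 36.1 and 33.6 CPM in PRMT9 shRNA cells, against 29.4 and 29.7 CPM in control cells. MRPS6, counterpart of S6 on the platform, had 27.6 and 26.6 CPM in PRMT9 shRNA cells, against 22.5 and 23.8 CPM in control cells. Their log2 fold changes were 0.24 and 0.23, with edgeR adjusted p of 0.000863 and 0.00232, and both PRMT9 shRNA libraries were above both controls. MRPL44, an exit-tunnel protein with a ribonuclease-like fold (0.17), MRPS18B (0.12) and MRPL37 (0.11) rose by less. The call of MRPL37 was lost without PRMT9 shRNA library 1, without control library 1, with no filter on low counts, with DESeq2 and in all 3 settings on log2 RPKM. That of MRPS18B was lost with DESeq2 and on log2(RPKM + 1) with no filter on low values, the setting that also ended the calls of MRPL50 and MRPS6. MRPL55 was at 0.13 without passing the test, with 15.5 and 16.5 CPM in PRMT9 shRNA cells and 12.7 and 16.7 CPM in control cells, which differed from each other more than the groups did. It passed when control library 2 was left out (0.35, edgeR adjusted p = 0.00056). MRPS22 (0.09) and MRPL16 (0.08) did not pass the main test either, although both of their PRMT9 shRNA libraries lay above both controls. Both genes passed as higher under upper-quartile scaling and with a filter at 1 CPM, and MRPS22 also with unscaled library totals.

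**Figure D2:**
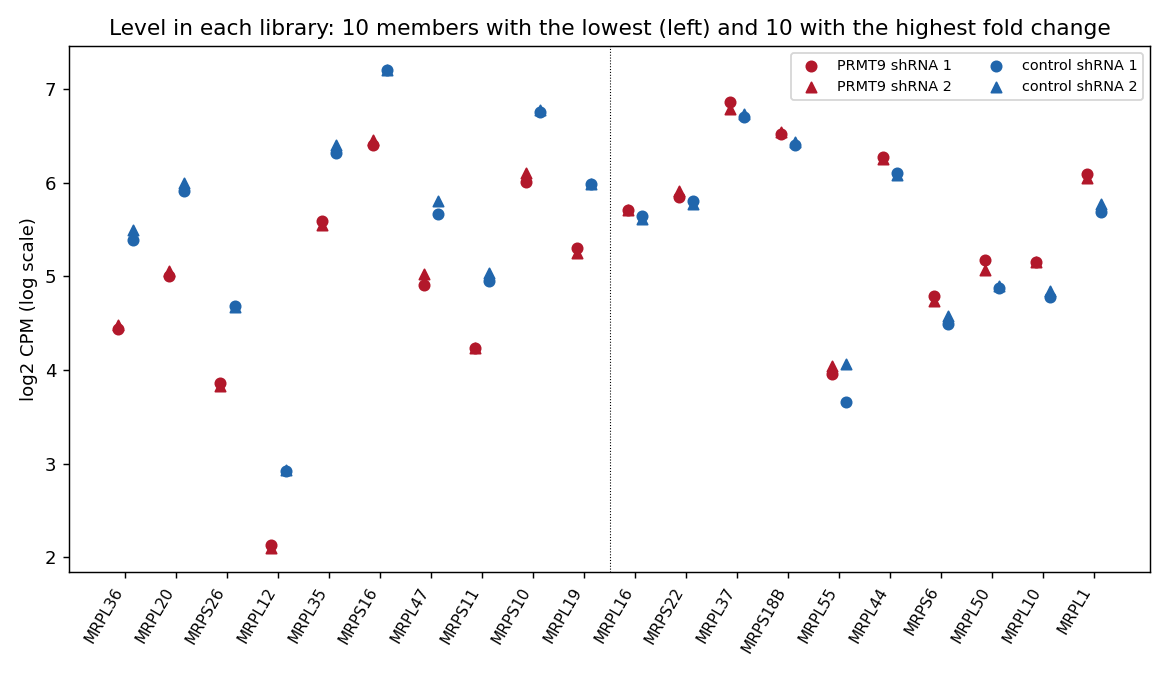
Log2 CPM in each library of the 10 members with the lowest fold changes, left of the dotted line, and the 10 with the highest, PRMT9 shRNA in red and control shRNA in blue, circles for library 1 and triangles for library 2. The groups are apart in every gene on the left, by 0.71 to 0.98 in the fitted log2 fold change. On the right the gaps are smaller, at most 0.34, and MRPL55 overlaps.

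Large and small subunits were then compared. Of the 49 large-subunit genes 33 fell (67.3%), 5 rose and 11 did not pass, and the median log2 fold change was -0.30. Of the 29 small-subunit genes 16 fell (55.2%), 2 rose and 11 did not pass, with a median of -0.23. Each median is the value of a gene with few reads, MRPL53 (SE 0.25) in the large subunit and MRPS24 (SE 0.63) in the small. The genes next in rank were MRPL14 (-0.31) and MRPL46 (-0.30) in the large subunit, and MRPS9 (-0.25) and MRPS5 (-0.22) in the small. Under upper-quartile scaling the small-subunit counts were 14 lower and 5 higher, and those of the large subunit 28 lower and 7 higher. That scaling also moved the background, to 4443 lower and 5933 higher over all tested genes, against 5249 and 5078 in the main test. Between single libraries, the median difference of the large-subunit genes ranged from -0.34 to -0.29 over the 4 pairs of a PRMT9 shRNA and a control library, and that of the small-subunit genes from -0.25 to -0.19. Summed over genes, the large subunit had 2119 and 2116 CPM in PRMT9 shRNA cells and 2560 and 2595 CPM in control cells, a difference of -17.8%. The small subunit had 1529 and 1537 CPM in PRMT9 shRNA cells and 1811 and 1825 CPM in control cells, a difference of -15.7%. The ratio of the 2 sums was therefore close between groups, 1.39 and 1.38 in PRMT9 shRNA cells and 1.41 and 1.42 in control cells. Its groups did not overlap, but with 2 libraries against 2 no permutation test can pass, and none was run.

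Part of that small difference follows the names. By structure, human MRPS18A and MRPS30 sit in the large subunit despite their symbols, and MRPS36 has been reassigned to the oxoglutarate dehydrogenase complex. MRPS18A had 42.4 and 38.8 CPM in PRMT9 shRNA cells and 42.8 and 41.0 CPM in control cells, with overlapping groups and a log2 fold change of -0.05 (edgeR adjusted p = 0.415). MRPS30 had 102 and 108 CPM in PRMT9 shRNA cells, against 116 and 117 CPM in control cells, and fell slightly (-0.15, SE 0.03, edgeR adjusted p = 0.000646, but 0.109 under upper-quartile scaling). MRPS36 had 18.9 and 20.8 CPM in PRMT9 shRNA cells and 20.6 and 22.3 CPM in control cells, and did not pass (-0.11, edgeR adjusted p = 0.179). With these genes placed by structure, 34 of 51 large-subunit genes fell and 5 rose, with a median of -0.30, and 15 of 26 small-subunit genes fell and 2 rose, with a median of -0.26. The ratio of the sums was then 1.66 and 1.65 in PRMT9 shRNA cells and 1.67 and 1.67 in control cells. The 3 MRPS18 paralogs, related to bacterial S18, differed among themselves: MRPS18C fell (-0.36, SE 0.05, edgeR adjusted p = 1.3e-05), MRPS18B rose (0.12, SE 0.03, edgeR adjusted p = 0.0043, but 0.0573 with DESeq2) and MRPS18A did not pass.

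Within each subunit the proteins with a bacterial counterpart had lower medians than those specific to mitochondria. In the large subunit by structure, 23 of 30 genes with a counterpart fell and 2 rose (median -0.33), and 11 of 21 mitochondria-specific genes fell and 3 rose (median -0.23). In the small subunit the counts were 10 of 16 lower and 1 higher (median -0.31) with a counterpart, and 5 of 10 lower and 1 higher (median -0.17) without. The 7 members of the central protuberance, which faces the small subunit and in mitochondria holds a transfer RNA in place of 5S RNA, all had fold changes below 0, and 4 of them fell (median -0.35). Of the 8 genes around the exit tunnel, 3 fell (MRPL47, MRPL24 and MRPL17), MRPL44 rose and the other 4 did not pass (median -0.10). No test was made between these classes.

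Promoters are shown for the members at both ends of the fold changes that have a RefSeq window, the 4 lowest (MRPL36, MRPL20, MRPS26 and MRPL12) and the 3 highest (MRPL1, MRPL50 and MRPS6). Sequences are the RefSeq GRCh38.p14 windows from 250 bases before to 50 after the annotated start, read 5′ to 3′ on the gene's strand. Capitals mark matches on either strand to CCGGAAG (the core bound by GABP and other ETS factors), GCGC followed by any base and TGCGC (NRF1), AAGATGGC (YY1) and CACGTG (the E-box of MYC and its relatives), motifs known from promoters of mitochondrial genes.
MRPL36 (chr5:1799788-1800087, minus strand): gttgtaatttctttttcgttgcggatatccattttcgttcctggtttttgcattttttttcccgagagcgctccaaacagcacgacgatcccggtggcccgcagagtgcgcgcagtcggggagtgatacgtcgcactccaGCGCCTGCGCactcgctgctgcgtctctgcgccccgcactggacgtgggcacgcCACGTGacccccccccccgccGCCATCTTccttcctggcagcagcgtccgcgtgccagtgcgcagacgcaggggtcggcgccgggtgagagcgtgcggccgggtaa
MRPL20 (chr1:1407244-1407543, minus strand): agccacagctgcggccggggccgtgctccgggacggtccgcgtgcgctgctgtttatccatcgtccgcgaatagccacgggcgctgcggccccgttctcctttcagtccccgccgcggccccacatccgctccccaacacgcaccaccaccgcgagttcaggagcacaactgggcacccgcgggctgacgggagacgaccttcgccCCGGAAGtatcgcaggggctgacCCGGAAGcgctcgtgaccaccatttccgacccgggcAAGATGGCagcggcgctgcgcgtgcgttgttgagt
MRPS26 (chr20:3045802-3046101, plus strand): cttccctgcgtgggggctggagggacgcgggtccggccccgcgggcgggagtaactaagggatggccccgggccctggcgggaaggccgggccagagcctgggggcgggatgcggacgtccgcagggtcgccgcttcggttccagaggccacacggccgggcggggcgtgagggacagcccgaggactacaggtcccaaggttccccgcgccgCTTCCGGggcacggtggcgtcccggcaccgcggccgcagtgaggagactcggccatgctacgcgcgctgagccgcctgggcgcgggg
MRPL12 (chr17:81703117-81703416, plus strand): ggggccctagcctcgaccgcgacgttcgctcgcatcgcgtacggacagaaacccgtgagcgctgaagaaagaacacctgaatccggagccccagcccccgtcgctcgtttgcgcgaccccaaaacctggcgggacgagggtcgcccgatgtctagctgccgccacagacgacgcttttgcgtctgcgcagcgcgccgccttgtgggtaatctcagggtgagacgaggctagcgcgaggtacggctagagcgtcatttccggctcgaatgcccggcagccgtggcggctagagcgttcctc
MRPL1 (chr4:77862580-77862879, plus strand): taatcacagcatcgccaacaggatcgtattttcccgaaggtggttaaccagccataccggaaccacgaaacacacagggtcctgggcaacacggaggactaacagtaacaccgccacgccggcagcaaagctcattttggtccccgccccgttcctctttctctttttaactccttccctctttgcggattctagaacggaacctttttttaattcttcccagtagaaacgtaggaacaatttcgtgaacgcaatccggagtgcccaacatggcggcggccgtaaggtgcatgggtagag
MRPL50 (chr9:101398569-101398868, minus strand): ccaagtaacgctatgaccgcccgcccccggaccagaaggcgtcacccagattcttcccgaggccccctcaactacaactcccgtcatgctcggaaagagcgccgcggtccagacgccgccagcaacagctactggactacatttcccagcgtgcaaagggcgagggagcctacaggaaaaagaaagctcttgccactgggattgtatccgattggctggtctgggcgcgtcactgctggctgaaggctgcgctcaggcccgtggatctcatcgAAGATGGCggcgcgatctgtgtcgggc
MRPS6 (chr21:34073328-34073627, plus strand): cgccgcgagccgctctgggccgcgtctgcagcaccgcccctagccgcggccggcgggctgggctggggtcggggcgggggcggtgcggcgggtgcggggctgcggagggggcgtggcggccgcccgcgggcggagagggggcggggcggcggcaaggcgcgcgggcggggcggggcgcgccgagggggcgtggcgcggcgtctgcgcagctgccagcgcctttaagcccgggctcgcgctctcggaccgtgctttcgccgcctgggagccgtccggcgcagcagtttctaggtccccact
MRPL36 holds 1 match each to the NRF1, E-box and YY1 motifs. MRPL20 holds the ETS core in 2 copies, upstream of a YY1 match close to the start, and MRPS26 holds 1 ETS core. MRPL50, which rose, holds a YY1 match. In MRPL12, which fell, and in MRPL1 and MRPS6, which rose, none of the 4 strings occurs in the window.

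RefSeq windows were matched for 69 of the 78 members, all but MRPL2, MRPL10, MRPL13, MRPL15, MRPL21, MRPL23, MRPL35, MRPS28 and MRPS36. The ETS core occurred in 29 of them (42.0%), against 10.7% of 27305 promoters and 19.8% of the 9691 promoters of tested genes. Of the 29 members with the core 21 fell and 0 rose (median log2 fold change -0.32), and of the 40 without it 24 fell and 6 rose (median -0.26). The YY1 string occurred in 20 members (28.99%), against 3.03% of all promoters and 5.62% of those of tested genes. Of the 20 with it 12 fell and 2 rose, and of the 49 without it 33 fell and 4 rose. The NRF1 string occurred in 8 members (11.6%, against 6.28% of all promoters and 11.8% of those of tested genes), of which 6 fell and 0 rose, and the E-box in 6 (8.70%, against 7.43% and 10.3%), of which 3 fell and 1 rose. The ETS and YY1 strings occurred together in 8 members and overlapped each other in 0 of them, and 22 members held none of the 4. At least 1 of the strings was present in 32 of the 45 members with a window that fell and in 3 of the 6 that rose. Among those that did not pass the test, it was present in 12 of 18. No difference between members with and without a string was tested. A match describes the letters in the window, and binding was not measured.

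Levels per length were compared with the deposited RPKM, which divides a gene's reads by its exon length and the library's size, averaged over the 4 libraries. The most abundant large-subunit genes were MRPL18 (70.4 RPKM), a protein of the central protuberance, MRPL15 (65.1 RPKM) and MRPL3 (62.6 RPKM), and all 3 fell, at -0.42, -0.36 and -0.51 on the log2 scale. The most abundant small-subunit genes were MRPS21 (55.7 RPKM), MRPS18B (47.1 RPKM) and MRPS35 (46.2 RPKM), and none of them fell. The next 3, MRPS34 (44.4 RPKM), MRPS16 (41.8 RPKM) and MRPS10 (41.6 RPKM), all fell, at -0.55, -0.77 and -0.71. MRPS21 had 92.1 and 90.0 CPM in PRMT9 shRNA cells and 92.8 and 91.1 CPM in control cells, and MRPS35 had 90.4 and 93.9 CPM in PRMT9 shRNA cells and 90.7 and 90.8 CPM in control cells, with overlapping groups in both. Over the 78 members, level and log2 fold change had a Pearson correlation of 0.04, given as a description, since all points come from the same 4 libraries.

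The least abundant members were MRPS24 (0.1004 RPKM), MRPL38 (0.592 RPKM), MRPL46 (0.673 RPKM), MRPL53 (1.13 RPKM), MRPS28 (1.78 RPKM) and MRPS17 (2.14 RPKM). All 6 share exon bases with another annotated gene on the same strand, between 11.3% (MRPL46) and 45.2% (MRPL53, with CCDC142), and MRPS24 shares 23.2% with the read-through gene URGCP-MRPS24. The part of shared reads in these low levels was not tested. MRPS17 was the only one of the 6 to pass the test. MRPS24 had 0.129 and 0.353 CPM in PRMT9 shRNA cells and 0.430 and 0.141 CPM in control cells, too few reads to give it a direction. In the 62 members with no such overlap, 39 fell and 6 rose, and the median log2 fold change was -0.26. Exons of 29 members also lie opposite another gene, most of all those of MRPS18A (47.0%, with RSPH9), MRPS18C (40.2%, with ABRAXAS1) and MRPL43 (36.9%, with SEMA4G and TWNK). Whether strand was used in counting is not given in the sources used here, so reads of these pairs cannot be told apart. MRPL45 is the 1 member with 10% or more of its 50-base windows repeated in distant genes (16.4%), and its value is uncertain for that reason.

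**Figure D3:**
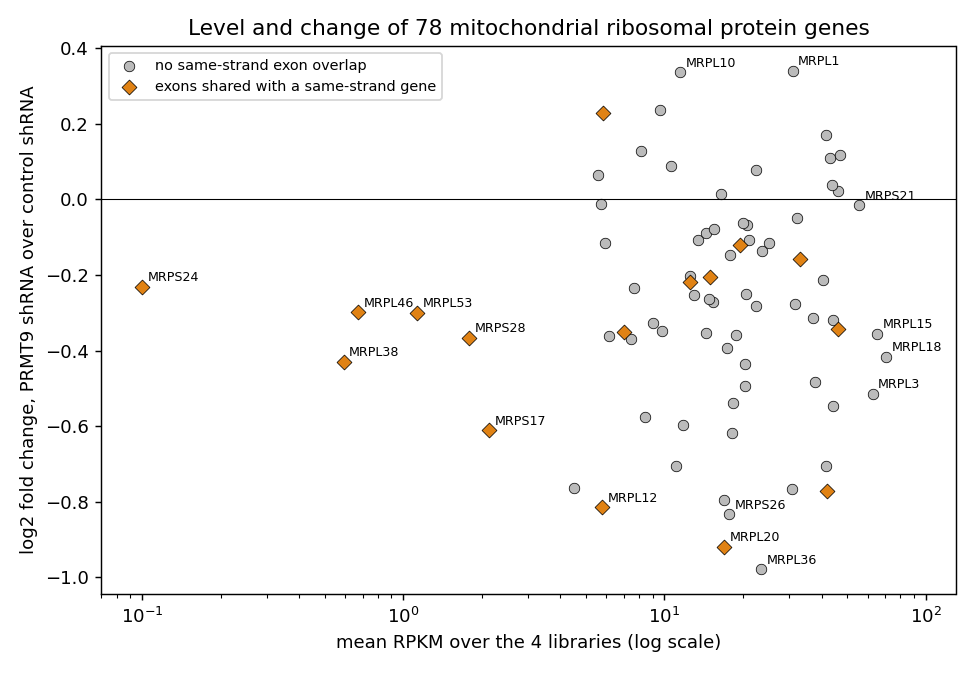
Mean RPKM over the 4 libraries (log axis) against the log2 fold change, PRMT9 shRNA over control shRNA, of the 78 members, with orange diamonds for the 16 genes that share exon bases with a same-strand gene. The 6 genes at the far left, from 0.1004 to 2.14 RPKM, are all diamonds. Among the others no trend with level is seen.

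Companion lists place the members beside the rest of mitochondrial gene expression. The background for their counts is that of all 15193 tested genes, of which 34.5% were lower and 33.4% higher. Of 5 mitochondrial ribosomal proteins with other names, AURKAIP1 (-0.53), GADD45GIP1 (-0.28) and DAP3 (-0.16), the small-subunit protein known as death-associated protein 3, fell, PTCD3 rose (0.12) and CHCHD1 (-0.12, edgeR adjusted p = 0.0502) did not pass. Of 26 assembly factors 16 fell and 5 rose (median log2 fold change -0.27), from MPV17L2, a large-subunit assembly factor (-1.38), to YBEY, a ribosomal RNA endonuclease (0.59). MPV17L2 had 7.44 and 6.25 CPM in PRMT9 shRNA cells, against 18.0 and 17.6 CPM in control cells. Of 16 translation factors 10 fell and 3 rose (median -0.15), with the elongation factor GFM1 lowest (-0.83) and the messenger RNA stabiliser LRPPRC highest (0.22). GFM1 had 54.2 and 56.6 CPM in PRMT9 shRNA cells, against 95.9 and 102 CPM in control cells.

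Of 17 genes for expression of the mitochondrial genome and its regulators, 14 fell and 1 rose (median -0.52), from the coactivator PPRC1 (-0.87) to the polymerase subunit POLG2 (0.20). Of 23 import genes 18 fell and 2 rose (median -0.63), from TIMM23B (-1.04), whose reads may be shared with its close paralog TIMM23, to TOMM7 (0.24). Of 77 nuclear genes of the respiratory chain and ATP synthase 55 fell and 10 rose (median -0.25), with the complex I subunit NDUFS6 lowest (-1.49), and NDUFA13 highest (0.50) without passing the test. Of the 13 messenger RNAs of the mitochondrial genome, which this ribosome translates, 11 fell and 0 rose (median -0.18), from MT-ND6 (-0.65) to MT-ND4 (0.01, not passing). Cytosolic ribosomal proteins, a family with many pseudogene copies, went the other way, with 73 of 85 higher and 9 lower (median 0.28), from RPL26L1 (-0.94) to RPL28 (0.49). These lists share the same 4 libraries, and the difference between the 2 kinds of ribosomal protein gene was not tested.

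**Figure D4:**
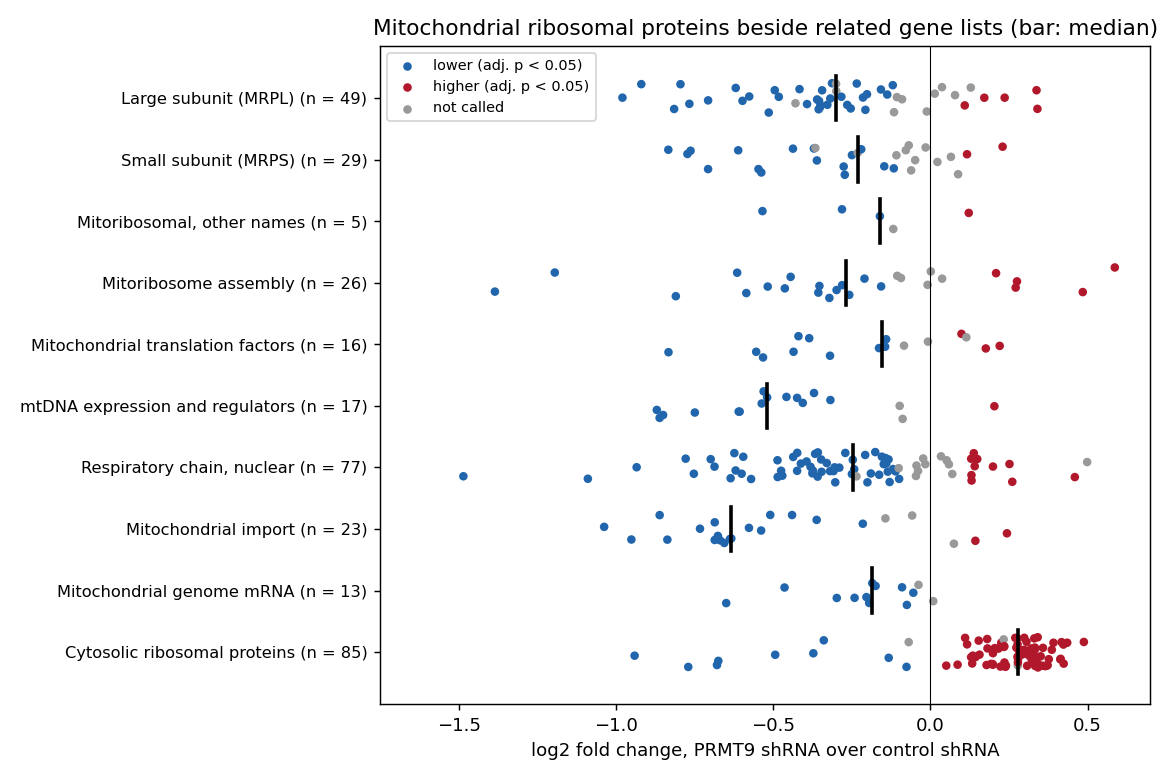
Log2 fold change, PRMT9 shRNA over control shRNA, of every tested gene in the 2 subunits and 8 companion lists, with the median of each as a black bar and colours as called (blue fell, red rose, grey did not pass). The medians of both subunits (-0.30 and -0.23) lie left of 0 with the other mitochondrial lists, and that of the cytosolic ribosomal proteins (0.28) lies right of it.

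Many mitochondrial ribosomal protein genes start close to a neighbour on the opposite strand. A tested neighbour with its 5′ end within 1000 bases, head to head, was found for 31 members in 30 pairs, since MRPS11 and MRPL46 are neighbours of each other. This look at neighbours was chosen after the values were seen. In 18 of them both genes passed the test, 10 with both lower, 2 with both higher and 6 with the member lower and the neighbour higher. The same direction was thus seen in 66.7%, against 60.1% of the 786 pairs in which both passed among all 1674 head-to-head pairs of tested genes. MRPL36 and NDUFS6, with 5′ ends 34 bases apart, fell together. The 5′ ends used here are the outer gene ends deposited with the counts, which can differ from the RefSeq starts used for the promoters. For MRPL36 that end is base 1801366 of chr5, outside the printed window (1799788-1800087). NDUFS6 had 30.5 and 30.8 CPM in PRMT9 shRNA cells, against 85.2 and 86.5 CPM in control cells. MRPL18 (-0.42) fell beside the chaperonin subunit TCP1 (-0.61), and MRPL43 (-0.35) beside the mitochondrial helicase listed as C10orf2, now TWNK (-0.86), whose exons it overlaps. MRPL50 rose with ZNF189 (0.60). In the opposite sense, MRPL14 (-0.31) fell beside TMEM63B (0.95), MRPL52 (-0.58) beside the amino acid transporter SLC7A7 (0.81), and MRPL41 (-0.60) beside the lysophospholipase gene PNPLA7 (2.37), which had 3.88 and 4.24 CPM in PRMT9 shRNA cells, against 0.893 and 0.670 CPM in control cells.

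**Figure D5:**
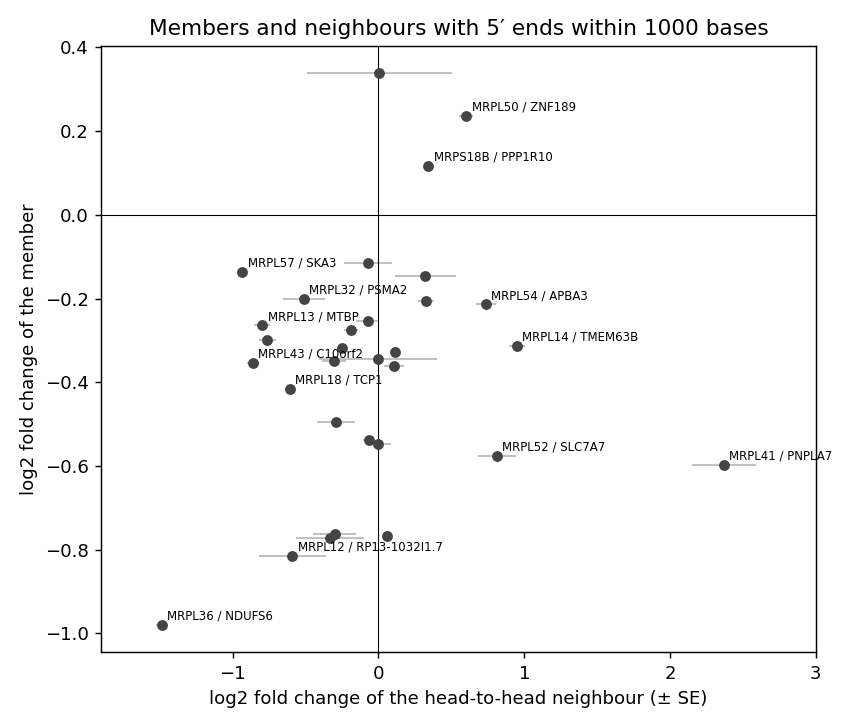
Log2 fold change, PRMT9 shRNA over control shRNA, of the 31 members (vertical axis) against that of their head-to-head neighbour (horizontal axis, with bars of 1 SE). MRPL36 and NDUFS6 lie at the lower left, at -0.98 and -1.49, and MRPL41 lies at -0.60 with its neighbour PNPLA7 at 2.37.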

How the data were processed

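Per the labels' protocols, the Kapa mRNA HyperPrep kit was used for polyadenylated RNA and a NovaSeq X for sequencing. The authors deposited raw read counts and RPKM values per gene, placed on GRCh38. The submitters' processing notes list SAMtools 1.10, STAR 2.7.2a and Trimmomatic 0.39. How reads were counted, whether by strand, and how shared reads were treated is not given in the sources used.

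Genes passing filterByExpr (minimum count 10) were tested in R 4.3.3 with the quasi-likelihood test of edgeR 4.0.16 (TMM scaling, robust), with Benjamini-Hochberg adjustment over all 15193 tested genes, and called at an adjusted p below 0.05. The procedure was tested on simulated data. Log2 fold changes are PRMT9 shRNA over control shRNA, and CPM values use TMM-scaled library sizes. Alternatives were DESeq2 1.42.0, limma 3.58.1 (voom, and log2 of RPKM plus 1 or 0.1), other scalings, filters and thresholds, a replicate block, and each library left out in turn. Named genes are the 10 lowest and 10 highest members, the 3 most and 3 least abundant per subunit, those whose subunit name and structure differ, the MRPS18 paralogs and the extremes of each companion list, and any other gene was picked with its values in view. The members and lists were chosen with earlier results of these data known.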

Additional observations from a re-analysis of the deposited data

How the results depend on the processing

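None of the 56 members that passed the test changed direction under any of the 16 alternatives, and 43 of them passed under every alternative that tested them. The counts of lower members ranged from 42 under upper-quartile scaling to 51 without control replicate 1. The number of higher members, 7, became 12 under upper-quartile scaling, with 5 in the small subunit, and 3 on log2(RPKM + 1) with no filter on low values, with 3 in the large and 0 in the small subunit. DESeq2 gave 44 lower and 5 higher members, with 1 higher in the small subunit. The background moved too. Over all genes tested, 5249 were lower and 5078 higher in the main test, and 4443 and 5933 under upper-quartile scaling. DESeq2 gave 4360 and 3990, and log2(RPKM + 1) with no filter 4018 and 3498. Calls were lost without PRMT9 shRNA library 1 (MRPL28, MRPL30, MRPL37), without PRMT9 shRNA library 2 (MRPL28, MRPL40, MRPL57, MRPS12), without control library 1 (MRPL33, MRPL37, MRPS12) or without control library 2 (MRPL28, MRPL57). MRPL28 and MRPS12 also lost theirs at an adjusted p below 0.01, with either other filter on counts and in every log2 RPKM setting, and MRPS12 with unscaled totals. DESeq2 lost these and MRPL33, MRPL37, MRPL40, MRPL57 and MRPS18B, upper-quartile scaling these and MRPL30, MRPL33, MRPL40, MRPL57 and MRPS30, and log2(RPKM + 1) with no filter these and MRPL30, MRPL32, MRPL37, MRPL50, MRPL54, MRPL57, MRPS6, MRPS18B and MRPS30. MRPL37 was also lost with no filter on counts and in both filtered log2 RPKM settings. Without control library 1, MRPL39, MRPL46, MRPS25 and MRPS28 passed, and without control library 2, MRPL38 and MRPL55. Under upper-quartile scaling MRPL16, MRPL45, MRPS22, MRPS33 and MRPS35 passed as higher. With a filter at 1 CPM MRPL16 and MRPS22 did so, and with unscaled totals MRPS22. In both filtered log2 RPKM settings MRPL23 passed as lower. MRPS24 was removed by the filters at 1 CPM and on low RPKM. With 1 library left out the lone sample of its group is assumed to vary like the others.

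The median log2 fold change of the large subunit was -0.21 under upper-quartile scaling, -0.27 with a filter at 1 CPM and -0.25 on log2(RPKM + 1) with or without a filter, and -0.33 to -0.29 with 1 library left out. That of the small subunit was -0.14, -0.20 and, placed by structure, -0.26, and -0.24 to -0.20 with 1 library left out. The difference of the medians, large minus small, was -0.07, and -0.0329 on filtered log2(RPKM + 1), -0.0385 by structure and -0.103 to -0.0819 with 1 library left out. The cause of these shifts was not tested.

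Direction was unstable in 10 members that did not pass. Under upper-quartile scaling MRPS14 (0.0103), MRPS2 (0.0197), MRPS25 (0.0273), MRPS18A (0.0401), MRPS21 (0.0734) and MRPL22 (0.077) were above 0. With a filter at 1 CPM MRPS21 was at 0.0169 and MRPL22 at 0.0205, and with library totals unscaled MRPL22 was at 0.0029 (log2 fold change). With 1 library left out, values ranged from -1.14 to 0.78 for MRPS24, -0.114 to 0.0199 for MRPS18A, -0.0329 to 0.0045 for MRPS21, -0.0495 to 0.0396 for MRPL22, -0.00485 to 0.0347 for MRPL2, -0.00368 to 0.0475 for MRPS35 and -0.0717 to 0.353 for MRPL55.

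Libraries with the same replicate number did not deviate together from their groups (correlation of deviations -0.03 over 15193 genes). This value cannot show whether they were paired by culture or handling, which the labels do not state. With the replicate block, 49 members were lower and 7 higher, as without it, and of all genes 5259 were lower and 5048 higher.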
